A study of Mus musculus with 5 samples.

Results

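The nuclear genes of oxidative phosphorylation are described here complex by complex, in single immune cells sorted from mouse brains after stroke. Members were taken by symbol, with earlier results of these data known. The choice took in every gene of the deposited table named as an NADH dehydrogenase subunit (Nduf a, b, c, s or v), succinate dehydrogenase subunit (Sdha to Sdhd), Uqcr protein, Cyc1, Cycs, Cox4 to Cox8 subunit or Atp5 subunit. Members numbered 71 of the 2926 genes in the table. Complex I had 32 members, complex II 3, complex III 9, cytochrome c 1, complex IV 11 and complex V 15. They lay on 18 chromosomes. Ndufa4 was counted under complex I by its symbol, although its protein is known as a subunit of complex IV, and Cox7a2l was counted under complex IV, although its protein is known for joining complexes into supercomplexes.

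The mice were wildtype C57BL/6 animals in which a stroke was made by photothrombosis, a light-induced clot in cortical vessels. Trained animals could use running wheels starting on day 2, untrained animals could not, and all were killed on day 14. Mononuclear cells of the hemisphere on the side of the stroke were purified over 37% Percoll. The samples are labelled as CD3+ T cells, and after CD45 and CD3 staining each cell went by sorting to its own well of a 384-well plate for SORT-seq, a plate-based assay that counts transcript 3′ ends. The table holds 692 cells, from 66 in trained sample 1 to 190 in untrained sample 2. Ages were not given, and the labels do not say that samples came from separate animals or how many animals each held. Training p-values therefore measure the spread between these samples. P-values that compare classes of cells measure the spread of the class difference over these samples. Either spread may be technical.

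Oxidative phosphorylation passes electrons from NADH (complex I) or succinate (complex II) through complex III, cytochrome c and complex IV to oxygen, and the proton gradient so made drives ATP synthesis by complex V. Complexes I, III, IV and V combine a few subunits encoded in mitochondrial DNA with many encoded in the nucleus, while complex II and cytochrome c are wholly nuclear. Resting and memory T cells rely largely on this pathway, and activated T cells enlarge their mitochondria while also raising glycolysis.

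The values are deposited scores per gene and cell, between -2.12 and 3.74, with 72.7% of all values below 0. They have the form of scaled or batch-integrated values, so a difference between cells is a difference of scores and not of transcript numbers, and levels of different genes cannot be ranked against each other. A score above 0 lies above the score's own zero point and does not count detected transcripts. The depth behind each score is not known. T cells were marked by the mean score of 7 measured genes (Cd3e, Cd3d, Cd3g, Cd247, Cd2, Lck and Thy1): 49.9% of cells lay above 0 and 50.1% at or below it. Their class means were, for example, 0.43 and -0.29 for Cd3e, part of the receptor's signalling module. The cut at 0 is the score's own zero point, so these shares do not count cells with and without the markers. Of 8 measured myeloid genes the mean score exceeded 1 in 50 cells, 41 of them in untrained sample 2. Untrained sample 2 also stood apart in its scale: 1607 of its genes, 50 of the 71 members among them, averaged to 0 over its cells within 1e-06, and its other 21 members lay below 0. In the other 4 samples no gene averaged to 0.

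Promoters of 59 of the 71 members were matched by symbol in RefSeq (mouse build GRCm38.p6), each as the 250 bases before and the 50 bases from the annotated start. Among the 12 members without a match were Atp5a1, Cox4i1, Cyc1, Sdhc and Uqcrc2. Both strands were searched for 3 motifs of factors known as regulators of respiratory chain genes: CGCANGCGC for NRF1, CCGGAAGT for ETS factors such as GABPA, and AANATGGCG for YY1. The NRF1 letters were in 19 of the 59 promoters (32.2%), against 6.59% of the 27025 RefSeq promoters and 8.95% of the 17491 protein-coding ones. The ETS letters were in 5 (8.47% against 5.29% of protein-coding promoters) and the YY1 letters in 6 (10.2% against 3.3%), and 27 held at least 1 of the 3. By complex, the NRF1 letters were in 7 of 29 promoters of complex I, 1 of 2 of complex II, 3 of 5 of complex III, that of Cycs, 1 of 9 of complex IV and 6 of 13 of complex V. A match describes letters in a window and is no evidence of binding.

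Printed here is the promoter of the matched member with the largest T cell marker difference in each complex, and, for contrast, that of Uqcr11, the complex III member with the smallest. Capitals mark every match to the 3 motifs on either strand, and no 2 matches overlap in these windows. The windows are Ndufb11 at chrX:20617570-20617869 on the minus strand, Sdha at chr13:74350191-74350490 on the minus strand, Uqcrh at chr4:116075021-116075320 on the minus strand, Cycs at chr6:50566520-50566819 on the minus strand, Cox8a at chr19:7217567-7217866 on the minus strand, Atp5g3 at chr2:73911277-73911576 on the minus strand and Uqcr11 at chr10:80406772-80407071 on the minus strand.
Ndufb11: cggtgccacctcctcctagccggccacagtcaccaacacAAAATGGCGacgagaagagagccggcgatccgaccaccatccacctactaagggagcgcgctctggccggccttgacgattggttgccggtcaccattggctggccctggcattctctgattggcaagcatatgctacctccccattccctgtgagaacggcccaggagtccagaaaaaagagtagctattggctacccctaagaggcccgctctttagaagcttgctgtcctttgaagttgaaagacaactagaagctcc
Sdha: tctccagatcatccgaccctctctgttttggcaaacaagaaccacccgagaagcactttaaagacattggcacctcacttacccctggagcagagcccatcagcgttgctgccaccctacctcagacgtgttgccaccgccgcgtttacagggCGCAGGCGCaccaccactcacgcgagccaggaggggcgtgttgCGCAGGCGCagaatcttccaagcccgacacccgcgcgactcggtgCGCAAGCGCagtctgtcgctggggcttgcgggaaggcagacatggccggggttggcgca
Uqcrh: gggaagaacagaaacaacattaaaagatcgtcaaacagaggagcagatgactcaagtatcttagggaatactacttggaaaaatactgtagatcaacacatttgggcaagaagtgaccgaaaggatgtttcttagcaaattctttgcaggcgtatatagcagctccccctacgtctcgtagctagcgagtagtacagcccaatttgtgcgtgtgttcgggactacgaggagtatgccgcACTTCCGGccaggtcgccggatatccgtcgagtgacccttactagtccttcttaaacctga
Cycs: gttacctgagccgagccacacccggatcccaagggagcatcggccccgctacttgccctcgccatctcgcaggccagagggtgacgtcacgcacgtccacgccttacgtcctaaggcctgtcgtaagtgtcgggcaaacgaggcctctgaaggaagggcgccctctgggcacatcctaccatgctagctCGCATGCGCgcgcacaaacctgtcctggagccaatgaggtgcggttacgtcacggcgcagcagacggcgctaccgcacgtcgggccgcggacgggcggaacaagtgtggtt
Cox8a: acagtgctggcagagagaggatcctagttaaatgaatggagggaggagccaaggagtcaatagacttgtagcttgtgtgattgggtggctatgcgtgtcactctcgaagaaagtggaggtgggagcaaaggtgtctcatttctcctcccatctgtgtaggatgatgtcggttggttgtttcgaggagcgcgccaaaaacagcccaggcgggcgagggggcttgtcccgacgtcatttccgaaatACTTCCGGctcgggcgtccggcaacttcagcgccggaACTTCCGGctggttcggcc
Atp5g3: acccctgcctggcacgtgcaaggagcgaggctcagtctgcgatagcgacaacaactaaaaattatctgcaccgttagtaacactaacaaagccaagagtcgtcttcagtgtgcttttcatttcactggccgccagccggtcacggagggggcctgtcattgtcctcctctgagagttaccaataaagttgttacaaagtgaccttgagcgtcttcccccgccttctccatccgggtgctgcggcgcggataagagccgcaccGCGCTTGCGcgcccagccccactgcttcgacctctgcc
Uqcr11: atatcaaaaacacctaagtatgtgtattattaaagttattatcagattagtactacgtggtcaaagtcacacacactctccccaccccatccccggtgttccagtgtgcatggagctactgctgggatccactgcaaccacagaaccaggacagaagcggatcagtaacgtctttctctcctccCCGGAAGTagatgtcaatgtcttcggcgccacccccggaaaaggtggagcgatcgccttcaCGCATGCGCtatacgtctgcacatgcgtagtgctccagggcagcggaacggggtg
Ndufb11 holds a YY1 match, Sdha 3 NRF1 matches, Uqcrh an ETS match, Cycs and Atp5g3 an NRF1 match each and Cox8a a pair of ETS matches close to the start. Uqcr11, with an ETS and an NRF1 match, had one of the smallest differences of all members. The median T cell marker difference was 0.292 in the 19 members with the NRF1 letters and 0.337 in the 40 without them, 0.5 in the 5 with the ETS letters and 0.333 in the 54 without, and 0.317 in the 6 with the YY1 letters and 0.334 in the 53 without.

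Cells with a T cell marker score above 0 had higher mean scores of every oxidative phosphorylation gene than the other sorted cells. Among the complexes, the median difference was largest in complexes IV and V. All 71 members were called higher in cells with a T cell marker score above 0 (limma, sample as block, Benjamini-Hochberg adjusted over 2919 genes), and each was higher in all 5 samples. This was the common direction of the table: 83.2% of all genes tested were called higher and 5.55% lower. The median difference of scores was 0.332 over the members against 0.203 over all genes. By complex the median was 0.431 for complex IV, 0.415 for complex V, 0.294 for complex I, 0.248 for complex II and 0.229 for complex III, and the single value of Cycs was 0.418. With each gene's scores divided by their SD the medians were 0.769 in complex V, 0.737 in complex IV, 0.587 in complex I, 0.474 in complex II and 0.449 in complex III. Cycs was at 0.697 and the median of all genes at 0.444.

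Other measures moved with the same split, and their part in the result was not tested. The mean score over all genes was 0.085 above the cut and -0.124 at or below it, as means of the 5 samples. The 2 noncoding transcripts listed for low-content cells went the other way: Kcnq1ot1 was at -0.44 and 0.93 and A630089N07Rik at -0.48 and 0.96. The mean myeloid score was -0.161 and -0.055, and it reached 0.343 only in untrained sample 2 at or below the cut. A sort on CD3 would leave out myeloid cells, NK cells and oligodendrocytes. Of the listed NK cell markers only Klrd1 was measured, at 0.184 and -0.26, and of the oligodendrocyte markers only Mbp, at 0.251 and -0.212. A single gene does not identify a cell type, so these values do not show NK cells or oligodendrocytes among the sorted cells. Without the cells of high myeloid score all 71 members were again called higher.

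Subtracting each cell's mean over all genes lowered the difference of every gene by the same 0.209 and left the gaps between complexes as they were, so signs on this scale are relative to the average gene. On it, of the 71 members, 45 were called higher and 3 lower, against 25.1% of all genes called higher and 24.3% called lower. Calls higher took in 10 of 11 members of complex IV, 13 of 15 of complex V, Cycs, 16 of 32 of complex I, 4 of 9 of complex III and 1 of 3 of complex II. The 3 called lower were Ndufa9 of complex I (-0.134) and Uqcr11 and Cyc1 of complex III (-0.119 and -0.103). Median differences on this scale were 0.222 in complex IV, 0.206 in complex V, 0.085 in complex I, 0.04 in complex II and 0.021 in complex III, beside -0.005 over all genes. Among the middle tercile of each sample's cells by mean score, an alternative added after the data were seen, no member was called and 0.24% of genes were. There 56 of 71 members were higher, beside 58.5% of all genes. Of the 71 members 15 had an unadjusted limma p under 0.05, beside 411 of 2919 genes. The median was 0.142 in complex V, 0.118 in complex IV and 0.018 over all genes.

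**Figure D1:**
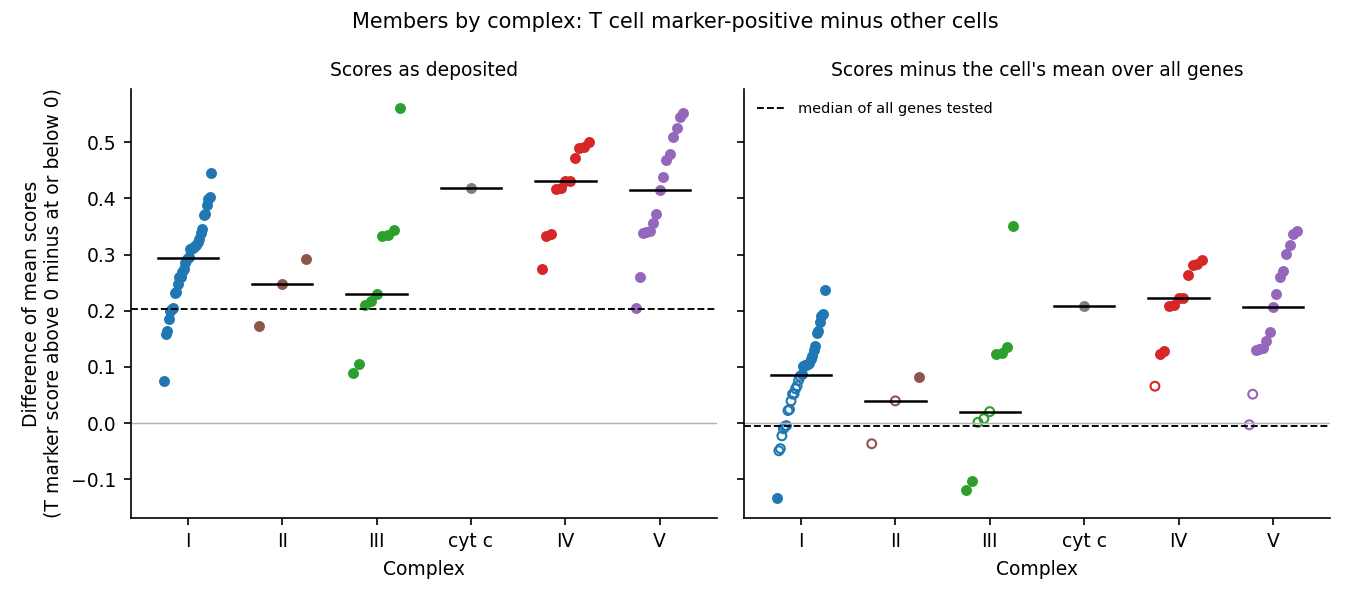
Difference of mean scores between cells with a T cell marker score above 0 and the other cells, 1 point per member, grouped by complex (cyt c, cytochrome c), from the scores as deposited (left) and after subtracting each cell's mean over all genes (right). Filled points have a limma adjusted p under 0.05, short bars are medians over members, and the dashed line is the median of all genes tested; on the left every point is filled and above 0, on the right 45 are filled above 0 and 3 below.

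Complex I, the NADH dehydrogenase, had differences from 0.075 to 0.446. Ndufb11, a subunit of its membrane arm, had the largest: 0.174, 0.283, 0.21, 0.367 and 0.195 in cells above the cut of untrained samples 1 and 2 and trained samples 1, 2 and 3, and -0.194, -0.233, -0.166, -0.214 and -0.192 in the other cells in the same order. Every sample was above 0 in the first class and below 0 in the second, and the difference was 0.446 ± 0.04 (SE, limma adjusted p = 6.86e-06). The accessory subunits Ndufa3 (0.402), Ndufa6 (0.4), Ndufc2 (0.388) and Ndufv3 (0.373) followed. The 10 Ndufb members, subunits of the membrane arm, had a median of 0.303 and the 13 Ndufa and Ndufab1 members one of 0.261. These groupings within complexes were made after the values were seen. Ndufa9, an accessory subunit near the ubiquinone site, gave the smallest difference of all members on the score scale. It was -0.03, -0.038, -0.09, -0.007 and -0.048 above the cut and -0.133, -0.075, -0.14, -0.13 and -0.109 below it, thus below 0 in both classes of every sample. Its difference of 0.075 ± 0.03 (limma adjusted p = 0.0364) lost its call on leaving out untrained sample 1 (0.102) or trained samples 1 (0.0516), 2 (0.112) or 3 (0.0853).

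Complex II, succinate dehydrogenase, also works in the citric acid cycle. Its flavoprotein Sdha was at 0.101, 0.128, 0.083, 0.111 and 0.116 above the cut and at -0.116, -0.149, -0.24, -0.215 and -0.196 below it. The classes did not overlap, and the samples above the cut lay close together (0.108 ± 0.017, SD, n = 5). The difference was 0.291 ± 0.031 (SE, limma adjusted p = 1.81e-05). Sdhb, the iron-sulfur subunit, differed by 0.248 and Sdhc, a membrane anchor, by 0.172, and Sdhc lay at -0.037 with cells centred. Of 11 measured genes of the citric acid cycle 9 were called higher, with a median of 0.271 that lay beside the 0.248 of complex II.

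Complex III, the cytochrome bc1 complex, held both the largest and some of the smallest differences. Uqcrh, the hinge protein that binds near cytochrome c1, stood at 0.264, 0.431, 0.378, 0.371 and 0.334 above the cut and at -0.11, -0.252, -0.165, -0.284 and -0.211 below it. Its difference of 0.56 ± 0.045 (SE, limma adjusted p = 4.12e-06) was the largest of the 71 on the score scale, while with scores divided by their SD Atp5g3 (0.948) lay above Uqcrh (0.905). Of the scores of Uqcrh, 63.8% above the cut exceeded 0 against 16.1% below. Uqcrc2, a core protein, differed by 0.344, Uqcrfs1, the Rieske iron-sulfur protein, by 0.334, Uqcrb by 0.332 and Uqcrc1, the other core protein, by 0.229. Uqcrq, a small subunit, differed by 0.217. Cyc1, the cytochrome c1 heme protein, was at 0.058, 0.092, 0.029, 0.028 and 0.007 above the cut and at -0.025, -0.054, -0.111, -0.056 and -0.066 below it. That difference of 0.105 ± 0.03 (limma adjusted p = 0.00719) was about the size of the one of Uqcr11, a small subunit, at 0.09 ± 0.033 (limma adjusted p = 0.0252). Uqcr11 lost its call without trained sample 2 (0.0914) or trained sample 3 (0.108).

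Cycs, the mobile carrier between complexes III and IV and also a trigger of apoptosis once released, was at 0.233, 0.315, 0.183, 0.34 and 0.247 above the cut and at -0.118, -0.184, -0.052, -0.221 and -0.197 below it. The classes were apart in every sample, by 0.418 ± 0.046 (SE, limma adjusted p = 2.28e-05). With cells centred the difference was 0.209 (limma adjusted p = 0.00233).

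Complex IV, cytochrome c oxidase, had differences from 0.274 (Cox7c) to 0.5 (Cox8a). Cox8a, a small membrane subunit, was at 0.167, 0.387, 0.329, 0.197 and 0.236 above the cut and at -0.17, -0.226, -0.197, -0.303 and -0.287 below it, a difference of 0.5 ± 0.04 (SE, limma adjusted p = 4.22e-06). Next came Cox6a1 (0.492) and Cox4i1 (0.49), and Cox5a was at 0.432. Cox4i1 and Cox5a are regulatory subunits, Cox4i1 and Cox6a1 the widely expressed forms of subunits that also have tissue-restricted ones. Cox7a2l, the supercomplex factor, differed by 0.472, and its 5 samples above the cut lay between 0.203 and 0.29. Cox6b1, which faces cytochrome c, differed by 0.332. Its samples above the cut were 0.077, 0.22, 0.237, -0.047 and 0.113, so trained sample 2 lay below 0 while the others lay above.

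Complex V, the ATP synthase, had 4 of the 5 largest differences of all members on the score scale. Its 3 genes for the same mature c subunit of the rotor ring stood at 0.551 (Atp5g3), 0.526 (Atp5g2) and 0.341 (Atp5g1); reads of such paralogs may be shared in the counting. Atp5g3 was at 0.288, 0.352, 0.401, 0.237 and 0.186 above the cut and at -0.174, -0.205, -0.366, -0.297 and -0.252 below it, with the classes apart in all samples (0.551 ± 0.047, SE, limma adjusted p = 5.49e-06). The F1 part makes ATP in its head of alpha and beta subunits, and gamma, delta and epsilon form its central stalk. Its differences were 0.51 for Atp5b (beta), 0.48 for Atp5c1 (gamma), 0.469 for Atp5e (epsilon), 0.438 for Atp5a1 (alpha) and 0.372 for Atp5d (delta). All 5 were also called higher with cells centred, as were the 3 c subunit genes. Atp5h, subunit d of the peripheral stalk, reached 0.544, whereas Atp5k, subunit e at the dimer interface, differed by 0.206 and by -0.003 with cells centred. The 7 peripheral stalk and membrane members had a median of 0.342 beside 0.469 in the F1 members and 0.526 in the c subunit genes.

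Neighbouring gene groups showed the same direction at other sizes. The 12 mitochondrially encoded genes, which supply the remaining subunits of complexes I, III, IV and V, were all called higher with a median of 0.517, and 9 were called higher with cells centred (median 0.309). Of 12 assembly and supercomplex factors 11 were called higher and 1 lower (median 0.257). The 9 measured glycolysis genes were all called higher (median 0.258), but only 2 of the 9 with cells centred. Of 33 mitochondrial ribosome genes 29 were called higher (median 0.161), and with cells centred 4 were called higher and 11 lower. Cytosolic ribosomal protein genes had the largest median, 0.782 over 69 genes, 68 of them called higher.

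Along the T cell marker score the members' mean was higher in each successive quintile of cells, given here as a description with no test. Mean member scores were -0.25, -0.131, 0.065, 0.151 and 0.204 from the lowest to the highest quintile, and those of all genes were -0.168, -0.109, 0.003, 0.067 and 0.125. The widest step lay between the second and the third quintile. Complex IV moved from -0.316 ± 0.03 to 0.249 ± 0.075 and complex II from -0.221 ± 0.042 to 0.108 ± 0.062 (SD, n = 5 samples). In the highest quintile complex II lay at 0.108 and the mean over all genes at 0.125.

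**Figure D2:**
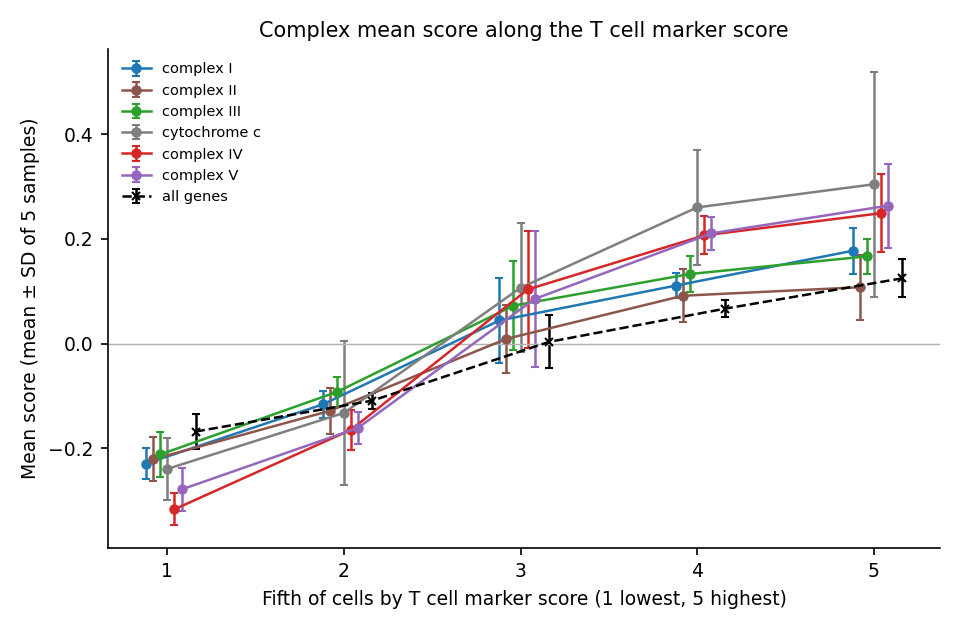
Mean score of each complex in quintiles of cells by T cell marker score within sample (1 lowest, 5 highest), as mean ± SD of the 5 samples, with the mean over all genes dashed. Every complex climbs from below 0 in the lowest quintile (complex IV -0.316, all genes -0.168) to above 0 in the highest (complex IV 0.249, all genes 0.125).

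Coreceptor gates put 23% of the cells in a CD8-gated class (mean of Cd8a and Cd8b1 above 0, Cd4 not) and 21.1% in a CD4-gated class (the reverse), while 57 cells lay above both gates and 330 above neither. The members' mean score was 0.085 ± 0.037 in CD8-gated cells, 0.067 ± 0.057 in CD4-gated cells, 0.168 ± 0.162 where both gates were passed and -0.097 ± 0.025 in cells above neither (SD, n = 5 samples). In every sample both single-gated classes lay above the cells outside both gates, by 0.182 ± 0.055 for CD8 and 0.164 ± 0.076 for CD4. The same order against cells outside both gates held in all 5 samples for each complex and both single gates, except complex II in CD8-gated cells, which was higher in 4 of 5 (-0.011 in untrained sample 2). The mean over all genes was 0.02 in CD8-gated, 0.046 in CD4-gated, 0.092 in cells above both and -0.087 in cells above neither gate, and its part in these values was not tested.

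Cells above both gates spread widely between samples. The members' mean there was 0.138 and 0.443 in untrained samples 1 and 2 and 0.09, 0.018 and 0.152 in trained samples 1, 2 and 3. The high value of untrained sample 2 rested on 6 cells and the low one of trained sample 2 on 2 cells. Cycs did not follow the others: it was lowest in untrained sample 2 (0.112) and highest in trained sample 1 (0.549).

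**Figure D3:**
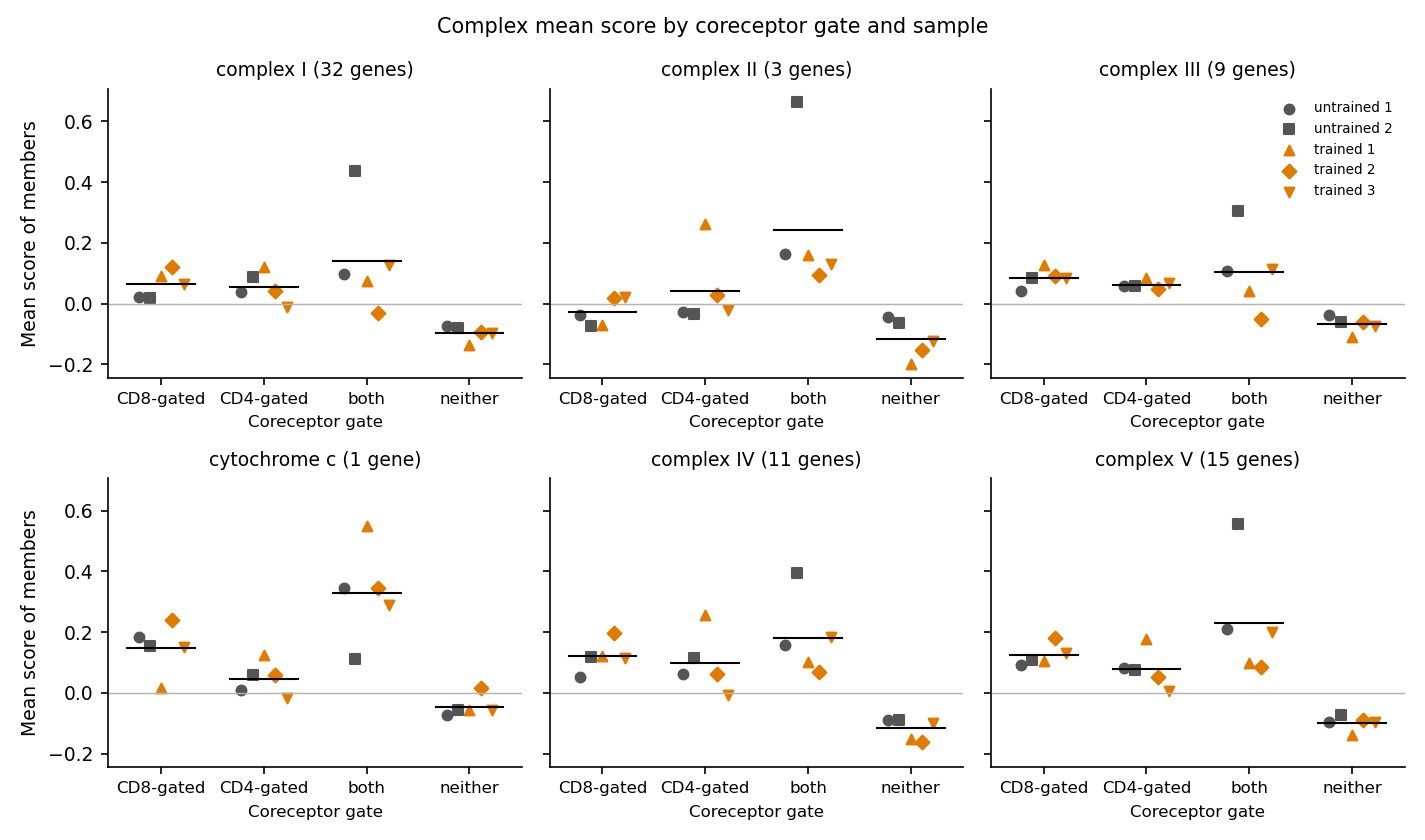
Mean score of the members of each complex by coreceptor gate, 1 point per sample (grey untrained, orange trained), with bars at the mean of the 5 samples. Points outside both gates lie below 0 apart from Cycs in trained sample 2, and cells above both gates spread most, from -0.031 to 0.435 in complex I.

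Between CD8-gated and CD4-gated cells no member was called different (limma, sample as block, adjusted over 2923 genes), where 0.171% of all genes were called. Of the members 4 (5.63%) had an unadjusted limma p under 0.05 beside 13.1% of all genes, and the smallest adjusted p was 0.254. In CD8-gated cells 45 of 71 members were higher, with a median difference of 0.024, while 38.5% of all genes were higher, with a median of -0.027. The split was 20 of 32 in complex I, 0 of 3 in complex II, 5 of 9 in complex III, Cycs, 8 of 11 in complex IV and 11 of 15 in complex V. Of the 69 cytosolic ribosomal protein genes 65 were higher in CD8-gated cells, with a median of 0.122.

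Few members kept 1 direction over the samples. Higher in CD8-gated cells of all 5 samples were 2 members, Atp5g2 and Uqcrh, beside 4.45% of all genes, and lower in all 5 was 1, Sdha, beside 9.37%. Atp5g2, a c subunit gene, was at 0.234, 0.283, 0.208, 0.319 and 0.187 in CD8-gated cells and at 0.138, 0.014, 0.131, 0.07 and -0.01 in CD4-gated cells. All 5 CD8-gated values lay above all 5 CD4-gated ones, with a difference of 0.178 ± 0.06 (SE, limma adjusted p = 0.254). Uqcrh, with a difference of 0.15 ± 0.062 (limma adjusted p = 0.312), was at 0.153, 0.29, 0.442, 0.335 and 0.249 under the CD8 gate and at 0.086, 0.259, 0.184, 0.059 and 0.129 under the CD4 gate. Its classes overlapped across samples, though not within one.

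Sdha went the other way, at -0.085, -0.164, -0.02, 0.078 and 0.07 under the CD8 gate and -0.026, -0.08, 0.271, 0.088 and 0.079 under the CD4 gate. The widest gap was in trained sample 1 which had 16 CD4-gated and 17 CD8-gated cells. Its difference of -0.091 ± 0.062 did not pass (limma adjusted p = 0.56). Sdhb differed by -0.091 ± 0.074, with -0.045 (CD8 gate) and 0.362 (CD4 gate) in trained sample 1 and differences from -0.189 to 0.116 in the other samples. The mean myeloid score of the CD4-gated cells was 0.181 in trained sample 1 and -0.11 to 0.02 in the others, and its part in these values was not tested.

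Ndufa2, an accessory subunit of complex I, had the largest difference toward CD4-gated cells, -0.203 ± 0.084 (limma adjusted p = 0.318). Its CD4-gated values of 0.475 in untrained sample 2 and 0.347 in trained sample 1 carried it, since the others were 0.036, -0.06 and 0.024. Atp5e (0.162 ± 0.072) and Cycs (0.103 ± 0.063) were each higher in CD8-gated cells in all samples but 1, and Ndufa7 (0.113), Uqcrq (0.118), Cox4i1 (0.109) and Cox6b1 (-0.062) were the other members with the smallest p of their complexes. As a mean over all members, the difference was -0.006, -0.02, -0.06, 0.092 and 0.086 in the order of samples, so its direction turned between them.

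**Figure D4:**
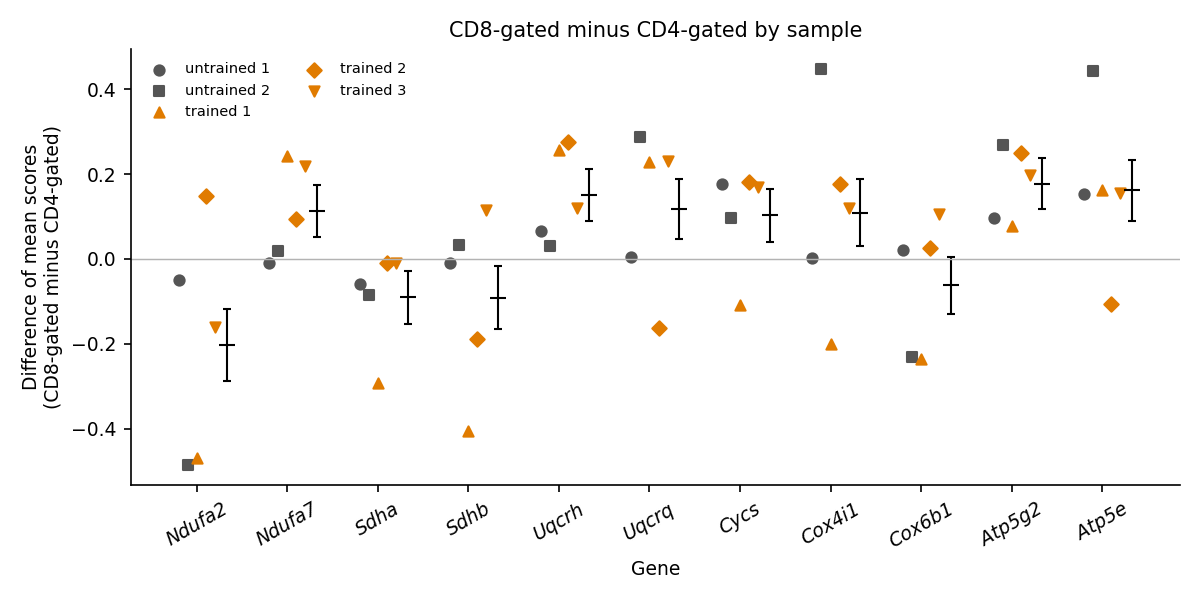
Difference of mean scores between CD8-gated and CD4-gated cells, 1 point per sample (grey untrained, orange trained), for the members with the smallest p in each complex, with the limma estimate and its standard error in black. Points of Uqcrh and Atp5g2 lie above 0 and points of Sdha below 0 in all 5 samples, while the other 8 genes have points on both sides.

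Training did not move any member past the threshold in all sorted cells. The limma count was 0 of 71 beside 0% of 2926 genes, and 3 members had an unadjusted p under 0.05 beside 7.72% of genes. Untrained samples had member means of 0.016 and -0.014, trained samples 0.021, 0.012 and -0.005, so the groups overlapped (0.001 ± 0.021 and 0.01 ± 0.013, SD). The median difference was 0.008 over the members and near 0 over all genes, with 42 of 71 members higher in trained samples. All 3 trained samples lay above both untrained ones in 7 members and below them in 4, beside 11% and 14% of genes. Those above were Ndufa3, Ndufa6, Ndufb8, Ndufb11, Ndufs6, Uqcrc1 and Atp5d, and those below were Ndufb6, Ndufs8, Cyc1 and Atp5e.

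Ndufb8, a membrane-arm subunit of complex I, was at -0.036 and -0.027 in untrained and at 0.027, 0.036 and 0.029 in trained samples. The groups did not overlap, and the difference of 0.062 ± 0.022 (SE) had a limma adjusted p of 0.518. Ndufb11 (0.077) and Atp5e (-0.065) were the other 2 with an unadjusted p under 0.05. The members with the smallest p in the remaining complexes were Sdha (-0.017) and Sdhc (-0.011), Uqcrh (0.056) and Uqcrc1 (0.04), Cox7a2 (0.075) and Cox7c (0.052), and Atp5o (0.051), with Cycs at 0.036. The per-sample scale of untrained sample 2 described above bears on these values: without that sample 31 of 71 members were higher and the median was -0.006.

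In cells with a T cell marker score above 0 the untrained samples had member means of 0.132 and 0.23 and the trained samples 0.161, 0.175 and 0.143, the trained values lying between the untrained ones. No member was called by limma, beside 0% of genes, and 1 had an unadjusted p under 0.05 beside 50 genes. Of the members 21 of 71 were higher in trained samples with a median of -0.021, and 39.4% of all genes were higher with a median of -0.012. Trained samples lay wholly above in 3 members and wholly below in 5, beside 6.43% and 8.34% of genes. Atp5e, at 0.253 and 0.388 in untrained and 0.037, 0.221 and 0.22 in trained samples, had the smallest p (-0.161 ± 0.07, limma adjusted p = 0.998).

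The direction over members in these cells depended on the untrained samples and on the summary used: with medians over cells in place of means 57 of 71 members were higher, with a median of 0.083, beside 80.7% of all genes. Without untrained sample 1 the median was -0.063 and 1 member, Ndufa4, was called lower (-0.218, limma adjusted p = 0.0487). Without untrained sample 2, whose T cell marker score above the cut averaged 0.666 against 0.288 to 0.38 in the others, 47 of 71 members were higher and the median was 0.02. Differences of the other members with the smallest p were Ndufs8 -0.072, Ndufb10 -0.099, Sdhb -0.045, Sdhc -0.037, Cyc1 -0.054, Uqcrc2 -0.062, Cycs -0.017, Cox5a -0.12, Cox7b -0.078 and Atp5k -0.104.

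**Figure D5:**
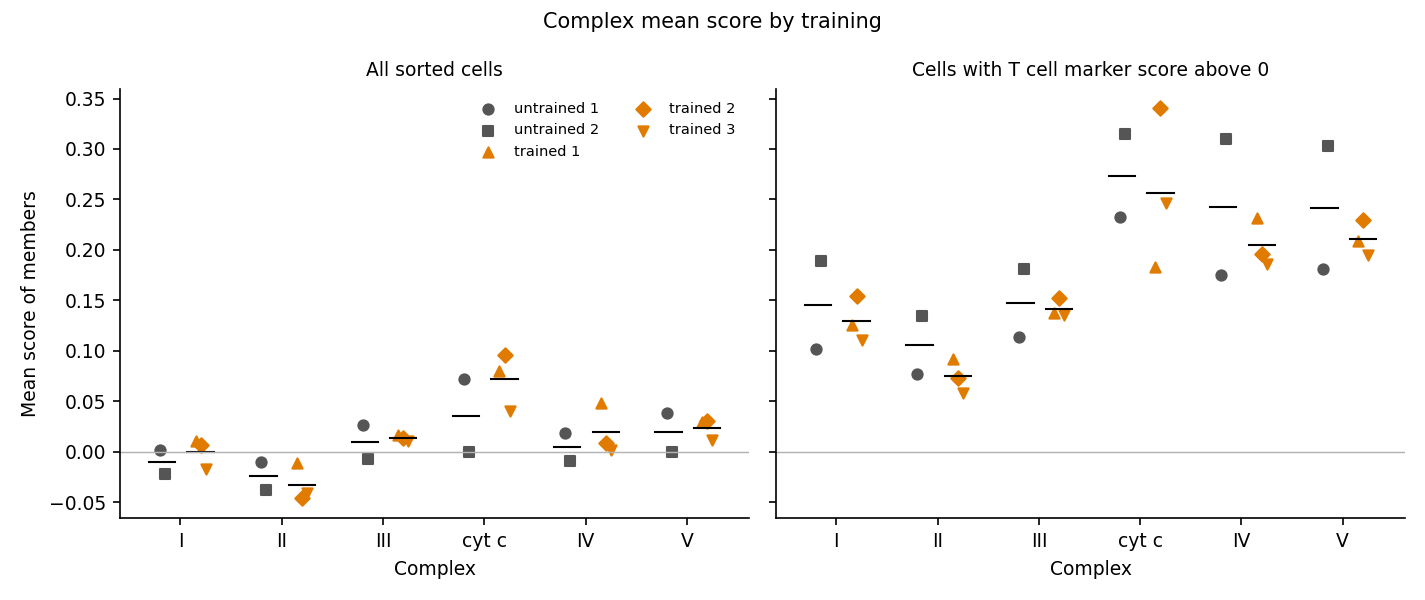
Mean score of the members of each complex in each sample (grey untrained, orange trained), in all sorted cells (left) and in cells with a T cell marker score above 0 (right), with bars at the group means. Trained and untrained samples overlap in every complex of both panels.

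In CD8-gated cells the members' mean was 0.043 and 0.06 in untrained and 0.096, 0.139 and 0.089 in trained samples, so the groups did not overlap. No member was called (limma; 0% of genes), 8 (11.3%) had an unadjusted p under 0.05 beside 8.92% of genes, and the smallest adjusted p was 0.52. Of the members 50 of 71 were higher with a median of 0.073, and 70.7% of all genes were higher with a median of 0.046. All trained samples lay above the untrained ones in 20 members and below them in 1, beside 21.6% and 3.49% of genes. Cox7a2, a small subunit of complex IV, was at 0.117 and -0.141 in untrained and 0.229, 0.346 and 0.211 in trained samples (0.274 ± 0.084, limma adjusted p = 0.52). Atp5g1 was at 0.095 and 0.111 in untrained and 0.343, 0.302 and 0.247 in trained samples (0.195 ± 0.076, limma adjusted p = 0.531).

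The mean over all genes moved with this split: in CD8-gated cells it was -0.002 and -0.012 in untrained and 0.041, 0.056 and 0.018 in trained samples, and its part was not tested. Subtracting each cell's mean over all genes lowered every difference by 0.045. On that scale 39 of 71 members were higher with a median of 0.027, beside 50.1% of all genes, and the smallest limma adjusted p was 0.778. The 20 members took in 8 of complex I, 5 each of complexes IV and V, Sdha and Uqcrc1, and the 1 below was Atp5e. Ndufb8 (0.247 ± 0.087) and Ndufab1 (0.217 ± 0.079), the mitochondrial acyl carrier protein, had the smallest p of complex I. Without untrained sample 2 the difference was 0.103 in Ndufb8 and 0.145 in Cox7a2, and without untrained sample 1 it was 0.391 and 0.403. The other members with the smallest p were Sdha (0.167), Sdhb (-0.056), Uqcrh (0.121), Uqcr11 (0.101), Cycs (-0.034), Cox8a (0.138) and Atp5b (0.216). With the gate at 0.25 the median over members was -0.005 and 33 of 71 were higher. In cells above neither gate the trained member means were lower, at -0.137, -0.1 and -0.095 against -0.075 and -0.076 in untrained samples. At or below the T cell marker cut they were lower too, at -0.15606, -0.199 and -0.175 against -0.122 and -0.15596. The mean over all genes was also lower in the trained samples of both classes, and its part was not tested.

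In CD4-gated cells the groups overlapped, with member means of 0.05 and 0.08 in untrained and 0.156, 0.047 and 0.003 in trained samples. No member was called (limma; 0% of genes), and 3 had an unadjusted p under 0.05 beside 71 genes. Of 71 members 37 were higher (median 0.005), while 37.1% of all genes were (median -0.028). Trained samples lay wholly above in 4 members and below in 6, beside 4.31% and 10.2% of genes. Sdha was at -0.026 and -0.08 in untrained and 0.271, 0.088 and 0.079 in trained samples (0.199 ± 0.091, limma adjusted p = 0.999). Ndufa8, an accessory subunit of complex I, was at 0.097 and 0.121 in untrained and at -0.13, -0.064 and -0.037 in trained samples (-0.186 ± 0.083, limma adjusted p = 0.999). Without trained sample 1 the median over members was -0.041 and 23 of 71 were higher. Uqcrc1 differed by 0.251, Uqcrfs1 by -0.142, Ndufa12 by -0.146, Sdhb by 0.115, Cycs by 0.023, Cox7c by 0.097, Cox8a by 0.102, Atp5b by -0.173 and Atp5j by 0.164.

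The training difference was not shown to differ between the gates. In the interaction of class and training no member passed (limma; 0% of 2923 genes), 3 (4.23%) had an unadjusted p under 0.05 beside 5.92% of genes, and the smallest adjusted p was 0.758. Those 3 were Atp5b (0.389 ± 0.147), Ndufa8 (0.337 ± 0.123) and Ndufb10 (0.323 ± 0.129), higher with training in CD8-gated relative to CD4-gated cells. The median over members was 0.047 beside 0.078 over all genes, with 44 of 71 members and 71.5% of all genes higher. With cells centred 29 of 71 members were higher with a median of -0.029, beside 50.4% of all genes. The remaining members with the smallest p were Sdhb (-0.172), Sdha (-0.032), Uqcrh (0.169), Uqcrc1 (-0.156), Cycs (-0.056), Cox7a2 (0.283), Cox6a1 (0.189) and Atp5g1 (0.224).

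Over single cells the members followed the overall score of the cell. Within samples, the members' mean correlated with the mean over all genes at r = 0.904 (0.862 to 0.934 in the 5 samples), with the cytosolic ribosomal protein genes at 0.866, with the T cell marker score at 0.768 and with the mitochondrially encoded genes at 0.689. Its r with the spike-in RNAs was -0.076. These r describe 66 to 190 cells a sample that share a library. Single members were only loosely tied: the mean r between 2 members was 0.161, against 0.081 between any 2 genes. By complex it was 0.201 within complex V, 0.2 within complex IV, 0.139 within complex I and 0.212 between complexes IV and V. Mitochondrially encoded genes had 0.492 among themselves and 0.206 with the members. Single members had a higher mean r with cytosolic ribosomal protein genes, 0.273, than with each other.

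The members closest to the mean of the other 70 were Atp5b (r = 0.544), Atp5g3 (0.54) and Cox4i1 (0.516), and the farthest were Ndufa9 (0.14), Cyc1 (0.193) and Atp5k (0.243). The 10 other genes most like the members' mean were Tpt1 (r = 0.805), Rplp1, Eef1a1, Rpl13a, Rplp0, Tmsb4x, Actb, Rpl19, Rpsa and Cd52 (0.756). Most code for abundant ribosomal, translation or cytoskeletal proteins. The median r over the 2855 genes outside the group was 0.281.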

How the data were processed

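The table used holds 1 value per gene and cell for 2926 genes and 41 spike-in RNAs. The authors deposited it as a count matrix, but its values are scores: they are not whole and 72.7% lie below 0. Cell Ranger is named in the submitters' processing notes, and how the scores were scaled or integrated is not given in the sources used here, nor are the genome build and depth. A second deposited table repeats 384 of its columns as scores within 5.0002e-10 and was not used. Since the values were not counts, no count test was run. Scores were averaged per gene, sample and class of cells and compared with limma 3.58.1 (R 4.3.3), with sample as a block between classes and Benjamini-Hochberg adjustment over all genes at 0.05; genes defining a class were left out. The fits were tried on the real per-sample means with group differences removed and known shifts added, and the outcome is not given here. Members, lists and comparisons were chosen with earlier results of these data known. Named in each complex were up to 5 called members per direction, otherwise the 2 of smallest p, the highest and lowest means in T marker-positive cells, and the 3 most and least correlated members. The pattern for cytosolic ribosomal protein genes was narrowed to leave out kinases and binding proteins of similar symbol. Carrier and biogenesis regulator lists were also computed: with T cell markers 12 of 12 carrier and channel genes were called higher (median 0.221), and of 2 regulators 1 was called higher and 1 lower. Alternatives changed 1 choice at a time: cuts, weights, scaling, centring, medians, myeloid-high cells and each sample left out. Results for some items are not reported here.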

Additional observations from a re-analysis of the deposited data

Results flagged for a closer look

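Each of 54 sets of 5 per-sample differences was looked at for a sample far from the others by Dixon's criterion, by which chance flags about 1 in 20 sets, and 3 were so marked. The CD8-gated minus CD4-gated difference of complex II was -0.334 in trained sample 1, while the other 4 samples lay between -0.04 and 0.0446. Sdha alone gave -0.292 in the same sample and -0.0846 to -0.00867 in the others; the sample had 17 CD8-gated and 16 CD4-gated cells. The T cell marker difference of Atp5b was 0.396 in untrained sample 1, below the 0.517 to 0.548 of the others, and positive in all 5.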

How the results depend on the processing

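Depth is not known, each group has 2 or 3 samples, and the scores' scale was set before deposit. The 71 calls with T cell markers were 71 under a cut at each sample's median, the highest against the lowest tercile, SD scaling, no sample block and myeloid-high cells left out, 58 with medians over cells, 45 higher and 3 lower with cells centred and 0 in the middle tercile of cells, which holds fewer cells, and 69 to 71 with each sample left out. Without the replicate block, here the sample, the count stayed at 71. Every training comparison kept 0 calls under each alternative, except that leaving out single samples gave 0 to 1 in T marker-positive cells; the CD8-gated against CD4-gated count stayed at 0. Leaving out 1 sample moved 38 of the 55 named training differences and 8 of the 11 between the gates by over 1.5 times, and 0 of the 29 with T cell markers. The causes of the following reversals, apart from centring, were not tested. With T cell markers, the middle tercile gave Sdha -0.0651, Uqcrc1 -0.0459, Cox6a1 -0.0183, Atp5b -0.00351, Ndufa9 -0.0507 and Cyc1 -0.097, none of them past the threshold. Centring lowers every difference by 0.209, so by construction each difference under that size changes sign, among them Sdhc -0.0366, Ndufa9 -0.134, Atp5k -0.00285 and Cyc1 -0.103. Medians over cells gave Cox4i1 -0.000847 between the gates, for training in all cells Sdha 0.0117, Sdhc 0.0144 and Atp5e 0.000984, and for training in T marker-positive cells Ndufb10 0.0428, Sdhb 0.0834, Sdhc 0.0476, Uqcrc2 0.0916, Cycs 0.0917, Cox7b 0.122 and Atp5k 0.0453. In the same cells a cut at 0.25 gave Sdhc 0.0031 and SD scaling Cycs 0.00367, and a gate at 0.25 gave Cox8a -0.00753 for training in CD8-gated cells. Leaving out single samples gave, for training in all cells, Sdha -0.041 to 0.00747 and Sdhc -0.0313 to 0.00833; in T marker-positive cells Sdhb -0.0917 to 0.00205, Uqcrc2 -0.143 to 0.0186 and Cycs -0.0587 to 0.0239; in CD8-gated cells Cycs -0.0851 to 0.0255; in CD4-gated cells Sdhb -0.00206 to 0.234, Cycs -0.0126 to 0.0595 and Cox8a -0.0101 to 0.171; and for the interaction Sdha -0.0792 to 0.0623, Cycs -0.106 to 0.0382 and Cox7a2 -0.0789 to 0.645.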
